A study of Rattus norvegicus with 44 samples.

Results

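The genes described here load and license the replicative helicase at replication origins. The set lists 10 genes, namely Mcm2, Mcm3, Mcm4, Mcm5, Mcm6, Mcm7, Mcm10, Cdt1, Cdc6 and Gmnn. Members were the probe sets of the array whose annotation names exactly 1 of these genes. This gave 11 of the 31099 probe sets on the array, for 9 of the 10 genes. No probe set used here names Cdc6, the ATPase that loads the helicase together with CDT1, so no value is given for it. Mcm10 and Gmnn have 2 probe sets each. The one with the higher mean over all arrays stood for the gene, and the other is described beside it.

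MCM2 to MCM7 form a ring of 6 related subunits that is the core of the replicative DNA helicase. In late mitosis and G1 the origin recognition complex, CDC6 and CDT1 load this ring onto origins in an inactive form, which is called licensing. Geminin, the product of Gmnn, binds CDT1 and stops licensing once S phase has begun, and MCM10 takes part in the later activation of the ring. Most of these genes are known targets of E2F factors and are transcribed mainly around the G1 to S transition of dividing cells.

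RNA came from H4-II-E-C3 cells, a rat hepatoma line, exposed for 24 h in serum-free medium to NiCl2 at 40, 140 or 400 µM, to Na2Cr2O7 at 0.275, 1 or 10 µM or to CdCl2 at 0.2, 0.55 or 1.2 µM, or left unexposed. The 3 concentrations of each metal were chosen in viability assays to cause no observed, some and marked cell death. The highest ones were thus aimed at a like toxicity and not at a like molarity. The study cautions that equal cell death may not mean an equal effect on gene expression. Each of the 9 exposures has 4 biological replicates and each replicate has 2 control arrays, which makes 36 exposed and 8 control arrays, and all 3 metals share these controls. All values are log2 RMA values of the Rat Genome 230 2.0 array, on which 1 unit is a doubling, and they measure mRNA and not protein. Array medians lay between 5.931 and 5.995, so the values were already normalised, and the number of arrays limits the precision.

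The condition of an array could be read in 2 ways. The deposited labels give each array its own title. In the order used here the titles were listed as deposited, the 4 titles of repeated microarrays were moved to the end, and the titles were then given to the arrays in turn. Both readings give the same condition for 22 arrays and different conditions for the other 22. The first 20 arrays, before the first displaced title, are the same under both. They hold all conditions of replicate 1, and the controls, nickel, chromium and cadmium 0.2 µM of replicate 2. The order was chosen to fit log2 changes published from these same arrays, so it is not independent of them, and that fit does not settle the replicate numbers. Counts of called genes at each concentration and between metals are therefore given over 4 replicates in that order and over the 20 arrays alone. Values of single arrays, correlations and the effect of leaving out a replicate are given in that order only. Among the 20 arrays cadmium at 0.55 and at 1.2 µM has a single array each, of replicate 1, which was assumed to vary like the other conditions. Under the deposited labels as they stand, limma called none of the 9 genes in any exposure or in any difference between 2 exposures, with 0 to 4 of them at an unadjusted p under 0.05. No share of all tested probe sets at an unadjusted p was counted, here or below. Of all tested probe sets, those labels gave 0.00644% called with cadmium at 0.55 µM, 5.52% between chromium and nickel, 2.18% between nickel and cadmium, and 0% elsewhere. Every statement on 4 replicates holds only if the order is right.

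The cells carried the transcripts of their labelled origin. Albumin lay between 13.82 and 14.71 on all arrays, Hnf4a, a hepatocyte transcription factor, between 8.84 and 10.97, and fetal Afp between 6.79 and 10.28. Of 8 hepatocyte markers with a probe set, Apoa1 was low, at percentile 43.0 of all probe sets by mean value. The 3 leukocyte, 3 fibroblast or stellate and 2 endothelial markers lay between percentiles 16.4 and 48.9, with Ptprc at 16.5 and Pecam1 at 16.4. The licensing genes lay between percentile 65.0 for Cdt1 and 95.1 for Mcm7. At the highest concentrations 5 of 7 tested hepatocyte markers fell with nickel, with a median log2 change of -0.99. Here and below in this paragraph a fall or rise is one called by limma at an adjusted p under 0.05. With chromium 4 fell and 1 rose, with a median of -0.59, and with cadmium 4 fell and 1 rose, with a median of -0.29. Of all tested probe sets 16.7%, 19.5% and 14% fell and 23.4%, 23% and 23.8% rose with nickel, chromium and cadmium. With the 20 arrays alone, 7 fell with nickel, 5 fell with chromium, and 5 fell and 1 rose with cadmium. On those arrays 22.7% and 16.2% of all tested probe sets fell with nickel and chromium. The part of these markers in the results below was not tested. In such bulk RNA, fewer cells of a type and less RNA per cell cannot be told apart.

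A short sequence occurs in most of the promoter windows that could be matched for these genes. RefSeq promoter windows of the rat build GRCr8, from 250 bases before to 50 after the start, were matched for 8 of the 10 genes, and Mcm4 and Cdc6 were not matched. The letters TTTNGCGC, on either strand, resemble the site that E2F factors are known to bind. They occur in 7 of the 8 windows, against 430 of all 33469 windows of this length (1.28%). This motif was chosen after the windows had been read, so the 7 of 8 is a description and not an independent result. The 4 stretches of 100 bases below are shown because the letters lie before the start, and in Mcm2, Mcm5 and Mcm6 the matches on the 2 strands overlap. Capitals mark the matches, and each sequence runs 5′ to 3′ on the strand of its gene.
Mcm2, GRCr8 chr4:122918095-122918194, minus strand: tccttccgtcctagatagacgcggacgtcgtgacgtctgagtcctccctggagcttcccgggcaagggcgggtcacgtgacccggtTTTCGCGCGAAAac
Mcm5, GRCr8 chr19:13488563-13488662, plus strand: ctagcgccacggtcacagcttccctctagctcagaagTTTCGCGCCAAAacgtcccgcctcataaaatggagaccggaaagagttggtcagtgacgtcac
Mcm6, GRCr8 chr13:42404432-42404531, minus strand: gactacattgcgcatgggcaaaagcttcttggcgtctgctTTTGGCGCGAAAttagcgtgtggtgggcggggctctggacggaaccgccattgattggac
Mcm7, GRCr8 chr12:22163179-22163278, minus strand: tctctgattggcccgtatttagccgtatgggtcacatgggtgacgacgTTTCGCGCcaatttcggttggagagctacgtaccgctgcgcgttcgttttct

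In Mcm3, Cdt1 and Gmnn the matches lie after the start, and 30 bases around the first one are shown to set them beside the others.
Mcm3, GRCr8 chr9:30733715-30733744, minus strand: acttgggaagtTTTCGCGCcagggaggagt
Cdt1, GRCr8 chr19:67529245-67529274, plus strand: ccgcgaaaattGCGCGAAAtccgcgggaag
Gmnn, GRCr8 chr17:40729854-40729883, plus strand: tctgcaggttcgggtcgtTTTGGCGCggtt

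The start of Mcm10 had no match, which says only that these letters are not in that window. CCAAT, the box that NF-Y is known to bind, occurs in 6 of the 8 windows on either strand, against 37.49% of all windows. A match is a description of the letters and not a bound site, and no binding was measured in these cells.

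**Figure D1:**
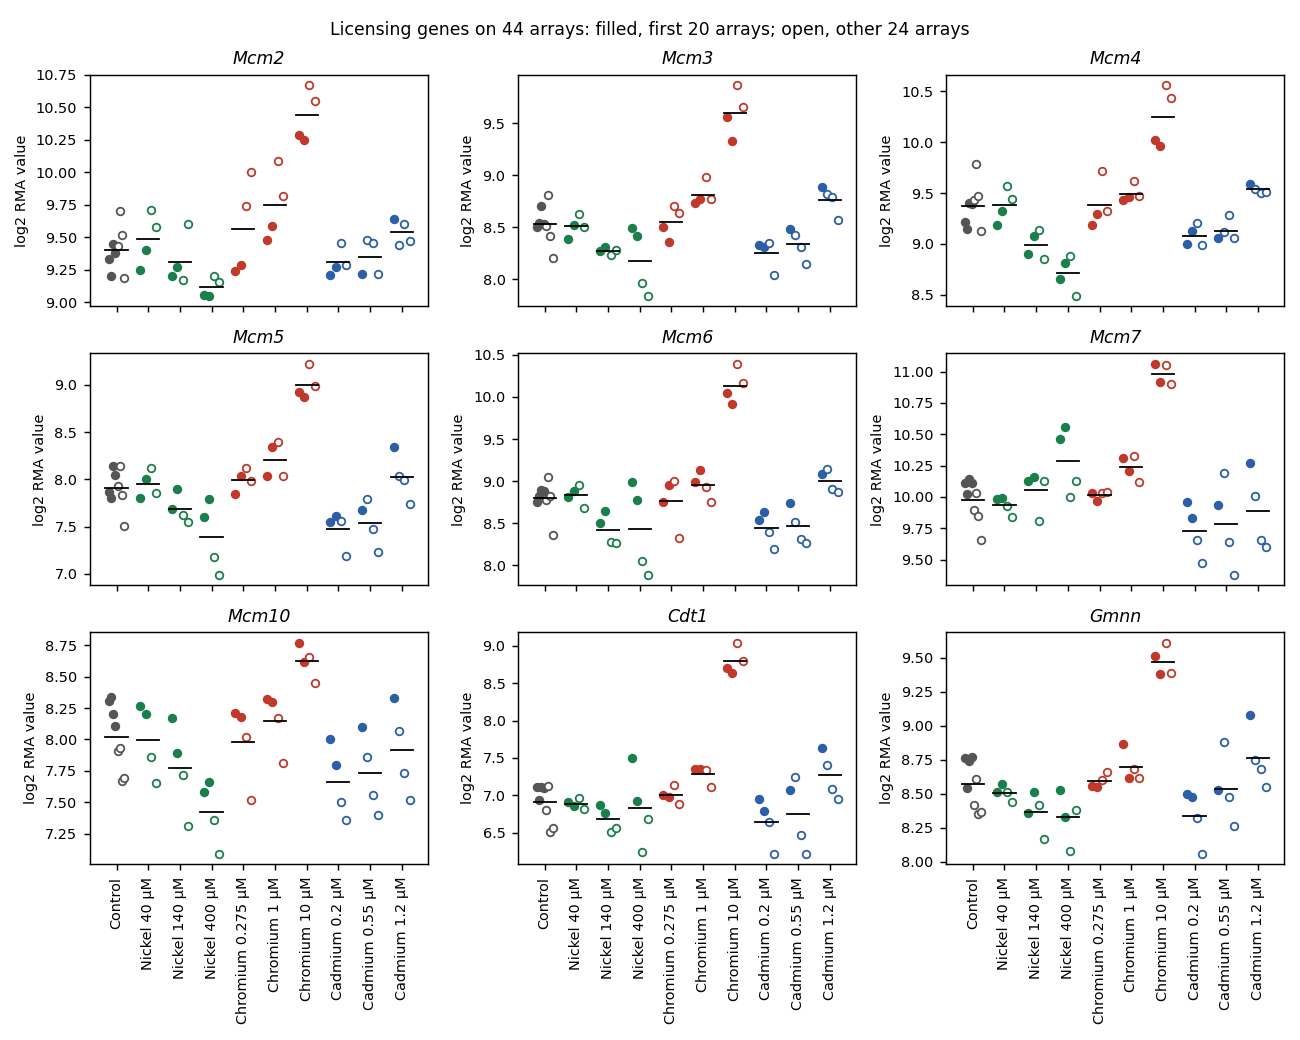
Log2 RMA value of each of the 9 genes (one panel each, y axis) on all 44 arrays, grouped on the x axis by condition with controls first and each metal by rising concentration. Filled points are the first 20 arrays, open points are the other 24, of which 22 take their condition from the order and 2 are controls by label and by order, and bars are means of the points. In every panel the 4 chromium 10 µM points lie above all 8 control points, as they do for 15.7% of all tested probe sets.

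With chromium at 10 µM all 9 genes rose. Cdt1, the loading factor, rose most, 3.69-fold, and Mcm10 rose least, 1.52-fold. The 6 ring subunits rose between 1.83-fold for Mcm4 and 2.52-fold for Mcm6, and Gmnn rose 1.87-fold. All 9 were called by limma at an adjusted p under 0.05, against 42.5% of the 15521 probe sets tested, or 23% in this direction. The median log2 change of the 9 genes was 1.04, and that of all tested probe sets was 0.01.

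Among the ring subunits, Mcm2 had 10.29, 10.25, 10.67 and 10.55 in chromium replicates 1 to 4, against a lowest value of 9.19, a median of 9.41 and a highest of 9.70 on the control arrays. Mcm6 had 10.05, 9.91, 10.39 and 10.17 with chromium, against 8.36, 8.83 and 9.05 on the controls. The lowest chromium array thus stood more than 0.5 log2 units above the highest control array for both genes. Mcm7, the member with the highest percentile, had 11.06, 10.92, 11.05 and 10.90 with chromium, against 9.66, 10.03 and 10.14. The remaining ring genes, Mcm3, Mcm4 and Mcm5, lay between 9.33 and 9.87, 9.96 and 10.56, and 8.87 and 9.22 with chromium, against 8.2 to 8.81, 9.13 to 9.78, and 7.51 to 8.14 on the controls. None of the 6 genes overlapped with its controls, and 15.7% of all tested probe sets had all 4 chromium arrays above all 8 controls. The log2 changes were 1.04 ± 0.10 for Mcm2, 1.08 ± 0.09 for Mcm3, 0.87 ± 0.09 for Mcm4, 1.09 ± 0.08 for Mcm5, 1.33 ± 0.11 for Mcm6 and 1.00 ± 0.07 for Mcm7 (SE, 4 replicates). Adjusted p from limma lay between 4.5e-07 for Mcm7 and 6.2e-06 for Mcm4. The change of Mcm6 was thus the largest of the ring and that of Mcm4 the smallest, and no test was made between genes.

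Cdt1 had 8.70, 8.64, 9.04 and 8.80 with chromium at 10 µM, against 6.51, 7.02 and 7.13 as lowest, median and highest control. Its log2 change of 1.89 ± 0.10 (SE, adjusted p = 4.3e-08, limma) was the second largest rise of the 15521 tested probe sets, at rank 2. The gap between the lowest chromium array and the highest control array was wider for Cdt1 than for any other member. Gmnn, its inhibitor, had 9.51, 9.38, 9.61 and 9.39 with chromium, against 8.35, 8.58 and 8.77, a log2 change of 0.90 ± 0.09 (SE, adjusted p = 3.8e-06, limma). The dimmer Gmnn probe set, at percentile 34.3 and not among those tested, went with it only weakly, at 5.28 to 5.54 with chromium and 5.08 to 5.38 on the controls. In a limma fit of all probe sets its log2 change was 0.20 (adjusted p = 0.12).

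Mcm10 had 8.77, 8.62, 8.66 and 8.45 with chromium, against 7.67, 8.02 and 8.34 on the controls, a log2 change of 0.60 ± 0.08 (SE, adjusted p = 3.6e-05, limma). Its other probe set had 8.75, 8.66, 8.82 and 8.47, against 7.35, 7.86 and 8.16, with a log2 change of 0.85. Both sets of Mcm10 rose, and both lay above all controls, like the 15.7% of tested probe sets given above. Over the 20 arrays alone, the 9 genes again rose with chromium, by 0.45 for Mcm10 to 1.60 for Cdt1 on the log2 scale, with limma adjusted p between 4.1e-05 and 0.0039. In that fit 34.9% of tested probe sets were called. By the threshold of the study's methods, an FDR of at most 0.001 for concentration with a 1.8-fold change, 8 of the 9 genes passed by the probe set that stood for them, against 2.64% of tested probe sets. Mcm10 did not pass by that set, while its other probe set, at 1.81-fold, did. On the 20 arrays 4 of the 9 genes passed this threshold, against 1.06% of tested probe sets.

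**Figure D2:**
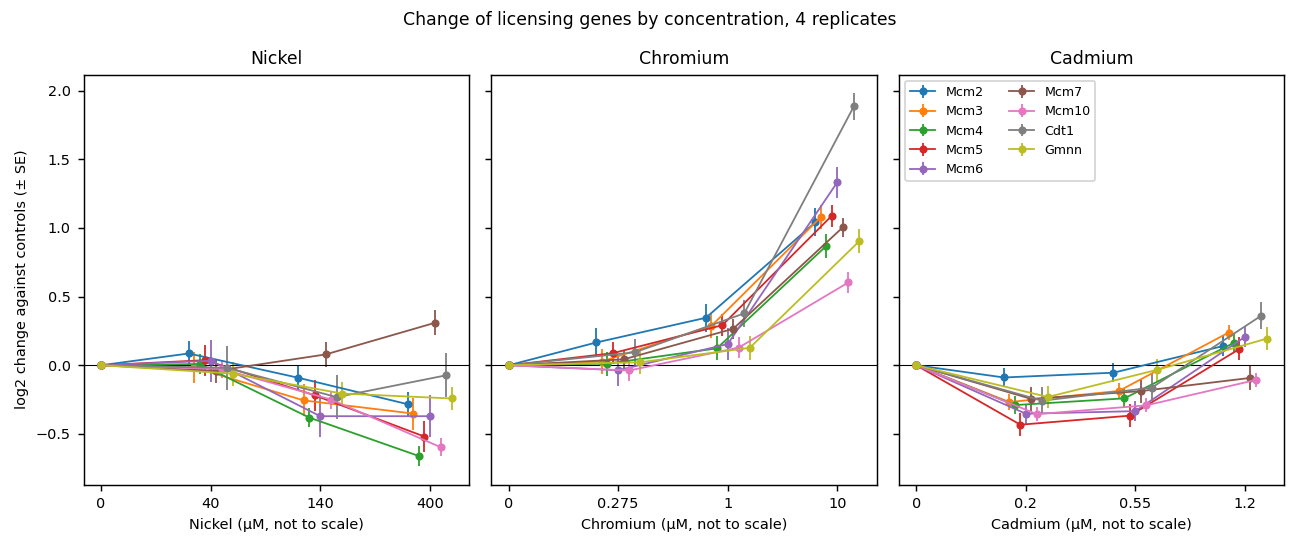
Log2 change against controls (y axis, points, with SE as bars) of the 9 genes at 0 and at the 3 concentrations of each metal in µM (x axis, spaced evenly and not to scale), 4 replicates in the order used here. Chromium at 10 µM lifts all 9 genes, from 0.60 for Mcm10 to 1.89 for Cdt1. With nickel at 400 µM 6 were called lower, against 16.7% of tested probe sets. With cadmium all points lie below 0 at 0.2 and 0.55 µM. There 2 and 5 genes were called, against 0.316% and 2.3% of tested probe sets called lower. At 1.2 µM 7 of 9 lie above 0 and 3 were called, against 23.8% called higher.

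At lower chromium concentrations no member was called. At 0.275 µM log2 changes lay between -0.04 and 0.17, with none at an unadjusted p under 0.05 in limma, and 0% of all probe sets were called. The 20 arrays gave -0.15 to 0.02, again with none at that p and 0% called. At 1 µM all 9 were positive, from 0.12 for Mcm4 to 0.38 for Cdt1, with limma adjusted p between 0.24 and 0.78. Of these, 5 genes (Mcm2, Mcm3, Mcm5, Mcm7 and Cdt1) had an unadjusted p under 0.05, and the ANOVA without moderation called none. How many of all tested probe sets had such an unadjusted p was not counted, here or on the 20 arrays. By adjusted p 0.0515% of tested probe sets were called at 1 µM, and the median over all of them was 0.00. The changes at 1 µM on the 20 arrays were 0.04 to 0.29, with 3 genes at an unadjusted p under 0.05, limma adjusted p between 0.57 and 0.94, and 0.00644% of probe sets called. Without the 4 repeated microarrays 1 member was called at 1 µM, with no share of all tested probe sets counted for that fit. Between 10 and 1 µM all 9 genes differed, by 0.47 for Mcm10 to 1.51 for Cdt1 on the log2 scale, with limma adjusted p between 5.7e-07 and 0.00035, against 37.8% of probe sets called. The 20 arrays alone also called all 9, against 27.4%. This contrast was added after the data had been seen.

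With nickel at 400 µM 6 of the 9 genes fell and Mcm7 rose. Mcm4 and Mcm10 fell most, 1.58-fold and 1.51-fold, and Mcm5, Mcm3, Mcm2 and Gmnn fell between 1.43-fold and 1.18-fold. Mcm7, which sits in the same ring, rose 1.24-fold, a call that ended without replicate 1, without replicate 2 and without the replicate block (limma adjusted p = 0.084, 0.10 and 0.078). The 7 genes called compare with 40.1% of tested probe sets, of which 16.7% fell and 23.4% rose. The median log2 change of the 9 genes was -0.35, and that of all tested probe sets was 0.01. No member reached the 1.8-fold threshold of the methods, which 1.95% of tested probe sets passed.

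Mcm4 had 8.66, 8.81, 8.88 and 8.49 in nickel replicates 1 to 4, against 9.13, 9.40 and 9.78 as lowest, median and highest control. Its log2 change was -0.66 ± 0.07 (SE, adjusted p = 1.9e-05, limma), and every nickel array lay below every control, as for 5.96% of tested probe sets. Mcm10 had 7.58, 7.66, 7.36 and 7.09 with nickel, against 7.67, 8.02 and 8.34, with a log2 change of -0.60 ± 0.07 (SE, adjusted p = 2.1e-05, limma). Its highest nickel array lay only just below its lowest control of any replicate. Against the controls of the same replicate all 4 changes were negative, from -0.74 to -0.50. The other Mcm10 probe set had 7.12, 7.42, 6.91 and 6.58, against 7.35, 7.86 and 8.16, and fell by 0.81 on the log2 scale, with 1 of its 4 nickel arrays within the control range. Its changes within replicates ran from -1.02 to -0.62. Mcm4 and Mcm10, by the set that stood for it, were the only 2 of the 9 genes whose nickel arrays all lay outside the range of the controls, against 15.8% of tested probe sets.

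Mcm5 had 7.60, 7.79, 7.18 and 6.99 with nickel at 400 µM, against 7.51, 7.90 and 8.14, a log2 change of -0.52 (adjusted p = 0.003, limma). Mcm3 had 8.49, 8.42, 7.96 and 7.84, against 8.2, 8.52 and 8.81, a log2 change of -0.35 (adjusted p = 0.027, limma). For both genes replicates 3 and 4 were lower than replicates 1 and 2, and replicates 1 and 2 lay within the control range. Mcm2 fell by 0.28 and Gmnn by 0.24 on the log2 scale (adjusted p = 0.024 and 0.04, limma), with 9.05 to 9.20 and 8.08 to 8.53 with nickel, against 9.19 to 9.70 and 8.35 to 8.77 on the controls. Mcm6 was not called, with 8.99, 8.78, 8.05 and 7.89 with nickel and a log2 change of -0.37 ± 0.15 (SE, adjusted p = 0.068, limma). Its replicates split, with changes of 0.20 and -0.11 in replicates 1 and 2 and of -0.86 and -0.71 in replicates 3 and 4.

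Cdt1 had 7.50, 6.92, 6.24 and 6.69 with nickel at 400 µM, against 6.51, 7.02 and 7.13 on the controls. Its log2 change was -0.07, with a 95% interval of -0.42 to 0.27 (adjusted p = 0.74, limma), which spans both a fall and a rise. Mcm7 had 10.46, 10.56, 10.00 and 10.13 with nickel, against 9.66, 10.03 and 10.14, a log2 change of 0.31 ± 0.09 (SE, adjusted p = 0.014, limma). Its replicates 1 and 2 lay above all controls, and its replicates 3 and 4 lay within their range, although each of the 4 was above the controls of its own replicate by 0.03 to 0.44.

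On the 20 arrays alone, 4 members fell and Mcm7 rose with nickel at 400 µM. Mcm4, Mcm10, Mcm2 and Mcm5 changed by -0.56, -0.62, -0.28 and -0.27 on the log2 scale and Mcm7 by 0.42, with limma adjusted p between 0.00072 and 0.017, against 48.7% of probe sets called. Mcm3 had -0.12 (adjusted p = 0.25) and Gmnn -0.27 (adjusted p = 0.053) there, and Mcm6 had 0.05 (adjusted p = 0.73). The falls of Mcm3 and Gmnn were thus called only over 4 replicates, which take in the arrays on which label and order differ. Gmnn changed by about as much on the 20 arrays (-0.273) as over 4 replicates (-0.242), while Mcm3 changed less (-0.116 against -0.352). Leaving out replicate 2 left 3 genes called of 7, all of them lower, and without the replicate block 3 were called. For these fits the share of all tested probe sets called was not counted. Such counts do not tell a loss of calls among the members from one over the whole array.

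**Figure D3:**
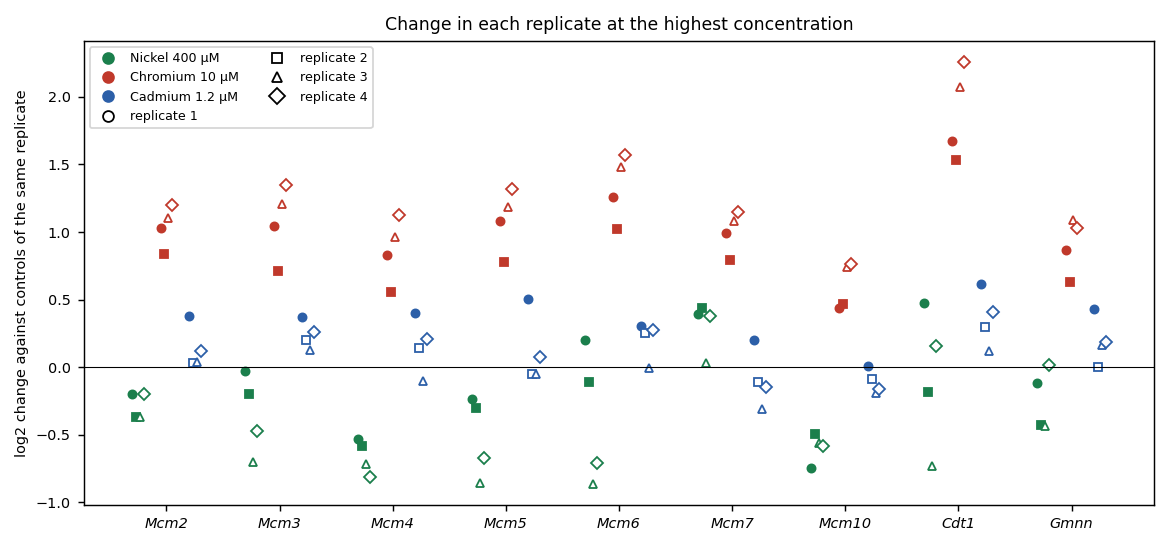
Log2 change of each gene (x axis) at the highest concentration of each metal against the mean of the 2 control arrays of the same replicate (y axis), with 1 marker per replicate. Filled markers are arrays among the 20 with 1 condition by label and order, open markers take theirs from the order. Chromium markers lie above 0.4 for all genes and replicates, nickel markers of Mcm3, Mcm5 and Mcm6 are lower in replicates 3 and 4, and Mcm7 stands above 0 with nickel.

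At lower nickel concentrations 1 gene was called. At 40 µM log2 changes lay between -0.06 and 0.09 and none had an unadjusted p under 0.05 in limma, and 0% of all probe sets were called. The 20 arrays gave -0.18 to 0.00 there, also with none at that p and 0% called. At 140 µM the median of the 9 genes was -0.23, against 0.02 over all tested probe sets, and 5 genes (Mcm3, Mcm4, Mcm6, Mcm10 and Gmnn) had an unadjusted p under 0.05. The share of all tested probe sets at that unadjusted p was not counted. Of these 5 genes Mcm4 alone was called by adjusted p, against 3.29% of tested probe sets and 0.754% called lower. It had 8.90, 9.08, 9.14 and 8.85, against 9.13, 9.40 and 9.78 on the controls, a log2 change of -0.38 (adjusted p = 0.013, limma). The values overlapped in 1 array. Its change on the 20 arrays was -0.31 (adjusted p = 0.083, limma, with 1.51% of probe sets called), and leaving out replicate 1, 2 or 3 or dropping the replicate block ended the call. How many of all tested probe sets lost their call without a replicate or the block was not counted. The other genes lay between -0.37 for Mcm6 and 0.08 for Mcm7 at 140 µM.

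With cadmium 2 of the 9 genes were called lower at 0.2 µM and 5 at 0.55 µM, and 3 were called higher at 1.2 µM. None of the calls at 0.2 and 0.55 µM was made on the 20 arrays or without the replicate block. The cadmium fit of the 20 arrays had 1 residual degree of freedom and called 0% of tested probe sets at 0.2 µM. It therefore cannot decide on the calls at 0.2 µM. Its log2 changes there were negative for all 9 genes, from -0.387 to -0.095. Over 4 replicates all 9 log2 changes at 0.2 µM were negative, from -0.09 for Mcm2 to -0.43 for Mcm5, with a median of -0.27 against 0.03 over all tested probe sets. Of these, Mcm5 and Mcm10 were the genes called, against 0.477% of tested probe sets called and 0.316% called lower. At 0.55 µM all 9 were again negative, from -0.03 for Gmnn to -0.37 for Mcm5, and 5 were called, against 10.7% called and 2.3% called lower. At 1.2 µM 7 of 9 were positive and 3 were called, all higher, against 37.8% called and 23.8% called higher.

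Mcm5 had 7.55, 7.61, 7.56 and 7.19 with cadmium at 0.2 µM, against 7.51, 7.90 and 8.14 as lowest, median and highest control, a log2 change of -0.43 ± 0.08 (SE, adjusted p = 0.041, limma). Mcm10 had 8.0, 7.80, 7.50 and 7.36, against 7.67, 8.02 and 8.34, a log2 change of -0.36 ± 0.05 (SE, adjusted p = 0.0097, limma), and its other probe set had -0.26 (adjusted p = 0.13). Both genes overlapped with the controls, although all 4 cadmium arrays of Mcm5 lay below its control median. Against the controls of the same replicate all 4 changes of both genes were negative. They ran from -0.485 to -0.289 for Mcm5 and from -0.42 to -0.325 for Mcm10. At 0.55 µM Mcm3, Mcm4, Mcm5, Mcm6 and Mcm10 fell by 0.19, 0.24, 0.37, 0.33 and 0.29 on the log2 scale, with limma adjusted p between 0.005 and 0.049. No member was called by limma at 0.2 or 0.55 µM over the 20 arrays, with 8 and 1 of the 9 at an unadjusted p under 0.05 and 0% and 2.65% of all probe sets called, and without the replicate block none was called either. Leaving out replicates 1, 2, 3 and 4 in turn left 1, 1, 0 and 0 genes called at 0.2 µM and 3, 3, 0 and 1 at 0.55 µM. The share of all tested probe sets was counted neither for these fits, nor without the block, nor at an unadjusted p.

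At 1.2 µM cadmium Cdt1 had 7.64, 7.41, 7.09 and 6.95, against 6.51, 7.02 and 7.13, a log2 change of 0.36 ± 0.10 (SE, adjusted p = 0.012, limma). Mcm3 had 8.89, 8.82, 8.79 and 8.57, against 8.2, 8.52 and 8.81, a log2 change of 0.24 (adjusted p = 0.0046, limma). Mcm6 had 9.09, 9.15, 8.91 and 8.87, against 8.36, 8.83 and 9.05, a log2 change of 0.21 (adjusted p = 0.041, limma). All 3 genes overlapped with their controls in at least 2 of the 4 arrays. The other genes lay between -0.11 for Mcm10 and 0.19 for Gmnn. Replicate 1 had the highest change of the 4 replicates for all 9 genes. Without replicate 1 none was called, without replicate 4 only 1 was, and without the replicate block none was. The share of all tested probe sets called was not counted for these fits or for the next one. These counts therefore do not tell a change of the members from one of the whole array. With 8 separate control arrays, which counts the 2 of a replicate as independent samples, 4 genes were called higher and Mcm10 lower (limma adjusted p = 0.043).

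On the 20 arrays, where cadmium at 1.2 µM is the lone array of replicate 1 and the fit had 1 residual degree of freedom, 7 genes were called higher and none lower, against 35% of probe sets. Between 1.2 and 0.2 µM cadmium 8 of 9 genes differed, all higher at 1.2 µM, by 0.23 for Mcm2 to 0.62 for Cdt1 on the log2 scale (limma adjusted p between 2e-05 and 0.02), against 37.7% of tested probe sets. Mcm7 had 0.15 (adjusted p = 0.19). Without replicate 1, 7 were called, and without the replicate block 5, with no share of all tested probe sets counted for either fit. The lone 1.2 µM array among the 20 arrays gave 0.34 to 0.84, with all 9 called, against 36.8% of probe sets. It holds the highest change from control among the 4 replicates for every member. This contrast too was added after the data had been seen.

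The metals differed from each other at their highest concentrations. All 9 genes were higher with chromium than with nickel, against 44.7% of tested probe sets that differed and 21.8% that were higher. The log2 differences ran from 0.69 for Mcm7 to 1.96 for Cdt1, with limma adjusted p between 2.3e-15 and 3e-06. The 20 arrays alone gave 0.48 to 1.46, with all 9 called, against 51% of probe sets. All 9 were also higher with chromium than with cadmium, by 0.71 for Mcm4 to 1.52 for Cdt1, with adjusted p between 1.1e-09 and 5e-07, against 43.5% called and 19.2% higher. Without replicate 1 all 9 were called as well, in a fit for which no share of all tested probe sets was counted. On the 20 arrays, with the lone cadmium array of replicate 1, these differences were 0.34 to 1.08, and all were called, against 32%.

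Nickel and cadmium differed for all 9 genes, against 45% of tested probe sets called and 24.8% called lower. With nickel 8 genes were lower, by 0.42 for Mcm2 to 0.82 for Mcm4 on the log2 scale, and Mcm7 was higher by 0.40 (adjusted p = 0.0027, limma). On the 20 arrays, again with 1 cadmium array, 6 genes were lower and Mcm7 was higher, against 43.9% of probe sets called, while Mcm6 had -0.23 (adjusted p = 0.14) and Cdt1 -0.38 (adjusted p = 0.068). These 3 pairs of metals were the only ones tested, and each p was adjusted over all 15521 probe sets of its pair. Nickel and cadmium in comparison with chromium share the chromium arrays, and all changes from control share the control arrays.

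**Figure D4:**
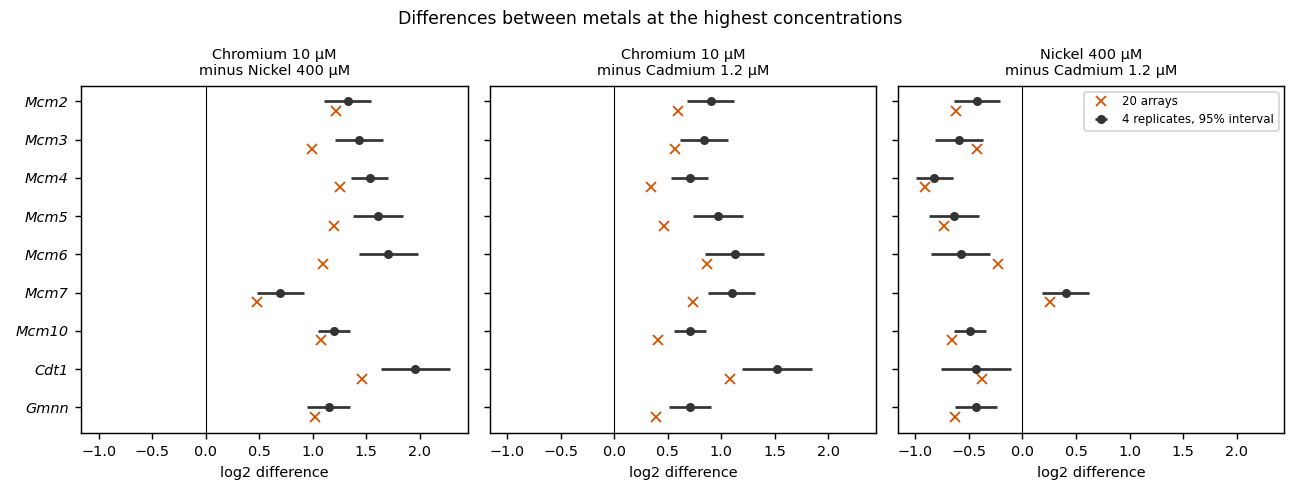
Log2 difference (x axis) between the highest concentrations of 2 metals for each of the 9 genes (y axis), over 4 replicates (points with 95% interval) and over the 20 arrays with 1 condition by label and order (crosses). All points are above 0 for chromium minus nickel and chromium minus cadmium, and for nickel minus cadmium all but Mcm7, at 0.40, are below 0.

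Mcm7 followed its ring partners least. Over 40 profiles, 1 for each condition and replicate after removal of replicate means, the correlation of a member with the mean of Mcm2 to Mcm7 ran from r = 0.82 for Mcm7 to 0.989 for Mcm3. Between pairs of members it ran from 0.601 for Mcm4 with Mcm7 to 0.973 for Mcm3 with Mcm5. Cdt1 had r = 0.963 and Gmnn 0.936. The ring genes are themselves part of that mean and the profiles share their arrays, so these values are descriptions without a test. Among 8925 other genes the profiles most like the ring were those of Dtl (r = 0.991), the substrate receptor of the ligase that marks CDT1 for destruction, of the zinc finger gene Zfp367 (0.977), of Chaf1a (0.972), a subunit of the chromatin assembly factor behind the fork, of the exonuclease gene Exo1 (0.969), and of Nup85 (0.966), a nuclear pore subunit. Dtl had log2 changes of -0.42 with nickel, 1.44 with chromium and 0.13 with cadmium at the highest concentrations.

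Other lists of genes around licensing were counted at the highest concentrations, where 42.5%, 40.1% and 37.8% of all tested probe sets were called with chromium, nickel and cadmium. In the same order, 23%, 23.4% and 23.8% were called higher and 19.5%, 16.7% and 14% lower. The origin recognition complex is the platform on which the ring is loaded. Of 6 tested genes of this list, 3 rose and 1 fell with chromium at 10 µM, 2 rose with nickel at 400 µM and 4 rose with cadmium at 1.2 µM, with median log2 changes of 0.22, 0.14 and 0.25. The 20 arrays gave the same counts with chromium and nickel, and 3 rose with cadmium. Orc6 had 1.06 and Orc3 -0.57 with chromium (limma adjusted p = 2.9e-06 and 8.7e-05). Orc4 and Orc5 rose with nickel by 0.53 and 0.46, the opposite direction to most ring genes. With cadmium Orc4 had 0.37 and Orc6 0.27, both called.

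The next list holds genes that turn the loaded ring into an active helicase, with fork protection and checkpoint genes beside them. The list medians had the same sign as those of the ring. With nickel and cadmium the counts lay near the shares of all tested probe sets called in the same direction. The cadmium median lay near the 0.035 over all tested probe sets. Of 8 tested genes 7 rose with chromium, 2 fell with nickel and 2 rose with cadmium, with median log2 changes of 0.79, -0.22 and 0.09. The 20 arrays gave 7, 1 and 2. Clspn, the checkpoint adaptor claspin, had 1.11 and Gins3, a subunit of the GINS part of the helicase, 0.99 with chromium. Timeless, of the fork protection complex, had -0.82 and Cdc45, the helicase cofactor, -0.33 with nickel, while Gins4 had 0.50 and Clspn 0.43 with cadmium. These named changes were called by limma (adjusted p between 9.1e-07 and 0.0077). The other MCM family genes, with 2 tested, gave Mcm8 at 0.88 and Mcmbp at 0.43 with chromium and at -0.52 and 0.20 with nickel, all called, and neither was called with cadmium. Both also rose with chromium on the 20 arrays, where 1 rose and 1 fell with nickel, and neither was called with cadmium.

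In the list of CDT1 turnover, 6 of 9 tested genes rose and 1 fell with chromium, 2 rose and 2 fell with nickel, and 2 rose and 1 fell with cadmium. Over the 20 arrays 5 rose with chromium, 3 rose and 2 fell with nickel, and 3 rose with cadmium. Dtl had 1.44 and Pcna, the sliding clamp on which CDT1 is marked, 1.28 with chromium. With nickel Cul1, a ligase scaffold, had 0.59 and Pcna -0.57, and with cadmium Pcna had 0.31 and Cul4b -0.24. In the list of E2F, RB and G1/S control, 11 of 17 rose and 2 fell with chromium, 1 rose and 5 fell with nickel, and 4 rose and 3 fell with cadmium. The 20 arrays gave 8 that rose and 2 that fell with chromium, 3 and 5 with nickel, and 3 and 2 with cadmium. The cyclin E genes Ccne2 and Ccne1 had 1.49 and 1.17 with chromium. With nickel E2f5 had 0.60 and the RB relative Rbl2 -0.55, and with cadmium Ccne2 had 0.64 and Cdkn1a, which encodes p21, 0.43. All of these named changes were called by limma.

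Mitotic genes had a smaller median with chromium than the licensing genes, without a test between lists. Of 13 tested, 10 rose with chromium, 7 fell with nickel and 4 fell with cadmium, with median log2 changes of 0.40, -0.31 and -0.13. Over the 20 arrays 8 rose with chromium, 5 fell with nickel, and with cadmium 1 rose and 1 fell. Ccna2, for cyclin A, had 0.84 and Cdk1 0.59 with chromium, Ccna2 had -0.67 and the checkpoint kinase gene Bub1 -0.65 with nickel, and Bub1 had -0.52 and the proliferation marker Mki67 -0.35 with cadmium.

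**Figure D5:**
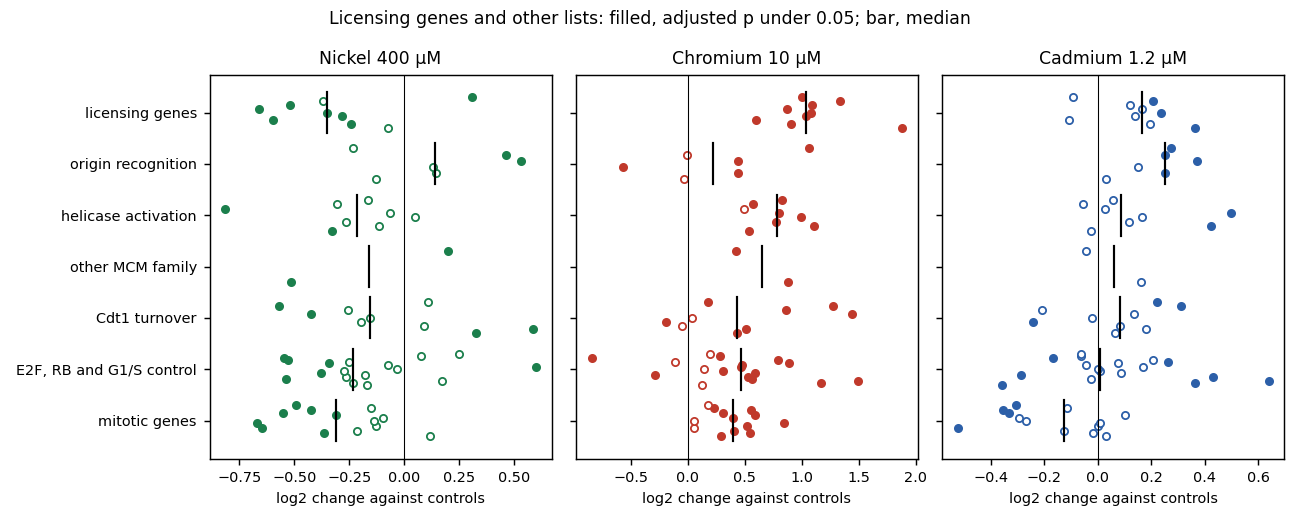
Log2 change against controls (x axis) of the tested genes of the licensing set and of 6 other lists (y axis) at the highest concentration of each metal, 4 replicates in the order used here. Each point is 1 gene, filled where limma's adjusted p is under 0.05, and bars are list medians. The licensing genes have medians of -0.35 with nickel, 1.04 with chromium and 0.16 with cadmium.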

How the data were processed

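The deposited values are log2 expression values per probe set, which the authors made from the scanned arrays by RMA (background adjustment, normalisation and summarization) in Partek Genomic Suite. Detection calls were not used here. In place of a filter on them, the 15521 probe sets with the highest mean over all 44 arrays were tested, of 31042 that are not array controls. Probe sets were named by GEO's platform annotation, in which 20826 name 1 gene, 436 several and 9780 none, and a gene was represented by its probe set of highest mean.

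Each metal was fitted with its controls in limma 3.58.1 (R 4.3.3), with condition and replicate number as terms, after averaging the 2 control arrays of a replicate. The replicate block stands for the batch of the study's methods. Deviations from condition means correlated on average by r = 0.47 between arrays of the same replicate number (lowest -0.30, 216 pairs) and by -0.16 between different numbers. The sources used here do not say if a replicate's 2 controls were cultured apart. They correlated at 0.992 to 0.997. Differences between metals came from 1 limma fit over all conditions. A call is a Benjamini-Hochberg adjusted p under 0.05 over all tested probe sets. Named genes are all members, the 2 genes of largest change per list and metal at the highest concentration, and the 5 genes most like the ring. Members and lists were chosen with earlier results of these data known. The order of titles that gives the conditions had been chosen to fit log2 changes published with the study. No published fold change or p-value entered a computation. Figures were drawn with matplotlib 3.10.9, and tables were made with pandas 2.3.3 in Python 3.11.15.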

Additional observations from a re-analysis of the deposited data

Results flagged for a closer look

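In 7 of 110 groups of a probe set and condition, 1 array stood apart from the others by more than Dixon's 95% limit, and chance gives about 1 in 20. The number given is the gap to the nearest array as a share of the whole range. Mcm6 had 8.36 on a replicate 4 control against 8.75 to 9.05 on the other 7 controls (0.573). Cdt1 with chromium at 1 µM had 7.11 in replicate 4 against 7.34 to 7.35 (0.932), and Mcm3 had 8.98 in replicate 3 against 8.73 to 8.77 (0.832). With cadmium at 0.2 µM replicate 4 was lowest for Mcm3, at 8.04 against 8.31 to 8.35 (0.871), and for Mcm5, at 7.19 against 7.55 to 7.61 (0.85). Mcm7 had 9.81 in replicate 3 of nickel 140 µM against 10.13 to 10.16 (0.908), and 9.97 in replicate 2 of chromium 0.275 µM against 10.03 to 10.04 (0.858). The Mcm6 array is a control by label and by order, the last array is among the 20 with the same condition by both, and the other 5 take their condition from the order.

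The effects of the metals differed by limma's test of the difference for each of the 9 genes in each of the 3 pairs at the highest concentrations. Chromium minus nickel was 1.33 for Mcm2, 1.43 for Mcm3, 1.53 for Mcm4, 1.61 for Mcm5, 1.70 for Mcm6, 0.69 for Mcm7, 1.20 for Mcm10, 1.96 for Cdt1 and 1.15 for Gmnn on the log2 scale. Chromium minus cadmium was 0.90 for Mcm2, 0.84 for Mcm3, 0.71 for Mcm4, 0.97 for Mcm5, 1.13 for Mcm6, 1.10 for Mcm7, 0.71 for Mcm10, 1.52 for Cdt1 and 0.71 for Gmnn. Nickel minus cadmium was -0.42 for Mcm2, -0.59 for Mcm3, -0.82 for Mcm4, -0.64 for Mcm5, -0.58 for Mcm6, 0.40 for Mcm7, -0.49 for Mcm10, -0.43 for Cdt1 and -0.44 for Gmnn. Under the deposited labels none of these 27 differences was called.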

How the results depend on the processing

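All 9 genes rose with chromium at 10 µM, and were higher with chromium than with nickel or cadmium, under every alternative except the deposited labels, and leaving out each replicate left 9 of 9. Under the deposited labels no gene was called (0) with nickel at 140 or 400 µM, chromium at 10 µM or any cadmium concentration, nor in any of the 3 differences between metals or the 2 between concentrations. Cdt1 and Mcm6, called higher with cadmium at 1.2 µM, then had log2 changes of -0.004 and -0.044. Calls with nickel at 140 µM (1 gene) numbered 0 over the 20 arrays and without the replicate block, and 2 with 8 separate control arrays, with 1 fit over all metals and with the methods' ANOVA (leave-one-out 0 to 1). With nickel at 400 µM (7 genes) 3 were called without the replicate block and 3 to 6 when a replicate was left out, and Mcm7 was not called higher without the block, without replicate 1 or without replicate 2. With chromium at 1 µM (0 genes) 1 was called without the 4 repeated microarrays.

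With cadmium at 0.2 µM (2 genes) the count was 0 over the 20 arrays and without the replicate block, 5 with 8 separate control arrays and without the repeated microarrays, and 1 with the Control 2 arrays alone, no filter on low values, arrays centred on their median, 1 fit over all metals or ANOVA (leave-one-out 0 to 1). With cadmium at 0.55 µM (5 genes) it was 0 over the 20 arrays and without the block, 1 with the Control 2 arrays alone, 3 with no filter and with centring, and 2 in 1 fit over all metals (leave-one-out 0 to 3). With cadmium at 1.2 µM (3 genes) it was 7 over the 20 arrays, 0 without the block and in 1 fit over all metals, 5 with 8 separate control arrays (4 higher and Mcm10 lower) and 5, all higher, without the repeated microarrays (leave-one-out 0 to 4). The methods' ANOVA called 3, of which 2 were higher and Mcm10 lower. Between cadmium 1.2 and 0.2 µM (8 genes) 5 differed without the block. The share of all tested probe sets called is given above for the 20 arrays and the deposited labels. For the other alternatives no such share stands beside the counts. Those counts therefore do not tell a change of the members from one of the whole array. The causes were not tested. The number of arrays, a single one for cadmium 0.55 and 1.2 µM among the 20, limits what can be called.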
